A study of Homo sapiens with 12 samples.

Results

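The colony-stimulating factors are secreted growth factors that drive the survival, growth and maturation of myeloid cells. The family described here is CSF1 (M-CSF, the macrophage factor), CSF2 (GM-CSF, the granulocyte and macrophage factor) and CSF3 (G-CSF, the granulocyte factor). They were taken by gene name from 2 tables of normalized counts, and were 3 of the 16633 genes listed in either table. All 3 were listed in the table of the PMA experiment, and CSF1 and CSF2 were listed in that of the ConA experiment, where CSF3 was not listed.

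RNA sequencing of polyadenylated RNA was performed on HT1080 cells, an established human fibrosarcoma line labelled wild type, in 12 libraries of 4 groups of 3. Treated cells received 40 nM PMA, a phorbol ester that activates protein kinase C, or 40 µg/mL concanavalin A (ConA), a lectin that binds and crosslinks cell surface glycoproteins, and each treatment had 3 control libraries of its own. Per the labels, cells were moved 3 days after seeding to medium with 1% serum and depleted of biotin, and the treatments lasted 24 h. What the controls received in place of the agents was not stated, and nothing said whether the 3 libraries of a group came from separate cultures, so p-values measure the spread between these libraries, which may be technical.

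CSF1 is made at a steady level by many mesenchymal cells and signals through the receptor tyrosine kinase CSF1R. CSF2 and CSF3 are usually low in resting cells and are switched on by inflammatory signals such as TNF, IL-1 and Toll-like receptor ligands, through NF-kB, AP-1 and C/EBP factors. Their messages are short-lived because AU-rich elements in the 3′ untranslated region recruit decay factors, and phorbol esters and lectins have long been used to induce CSF2 in lymphocytes.

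The 3 messages differ in these AU-rich letters. The longest annotated 3′ untranslated region of each gene (GENCODE release 29) was searched for the pentamer ATTTA and the overlapping nonamer ATTTATTTA, which contains it. The stretch of 30 bases with the most pentamers is shown for each gene because it carries this contrast, with pentamers in capitals.
CSF1: tttatataaagtcATTTAaatatctATTTA
CSF2: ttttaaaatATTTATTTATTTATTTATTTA
CSF3: tcccatgtATTTAtctctATTTAatATTTA
CSF2 held 8 pentamers in 318 bases, or 25.2 per kb, a density that 0.115% of 19115 genes reached, and 4 nonamers, where 6.89% of genes held any. CSF3 held 7 pentamers in 854 bases, or 8.2 per kb, a density that 2.21% of genes reached, and 0 nonamers. CSF1 held 4 pentamers in 2154 bases, or 1.86 per kb, which 43.4% of genes reached and which lay near the median of 1.48 per kb. These letters are a description of the messages, and RNA stability was not measured.

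The promoter of CSF2 is shown because it holds the elements for which this gene is known. The 250 bases before the start of CSF2 on the plus strand (RefSeq, GRCh38.p14, chr5:132073539-132073788) are given with 2 motif matches in capitals.
CSF2 promoter: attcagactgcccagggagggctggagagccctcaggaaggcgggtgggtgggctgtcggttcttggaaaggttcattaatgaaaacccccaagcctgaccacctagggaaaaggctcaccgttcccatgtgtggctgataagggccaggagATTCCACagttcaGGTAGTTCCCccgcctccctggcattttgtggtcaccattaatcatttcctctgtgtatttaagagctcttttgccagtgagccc
The first match is the CK-1 core ATTCCAC, from 98 to 92 bases before the start, which 2.52% of 35116 promoters held on either strand. The second is the NF-kB motif GGGANNNNCC, read on the minus strand from 85 to 76 bases before the start, which 22.6% of promoters held. The motifs did not overlap each other. No exact match to the AP-1 motif TGANTCA (in 6.57% of promoters) or to TATAAA (in 10.7%) stood in these letters. Sites that vary from these motifs were not searched for, so their absence is not shown. CSF1 and CSF3 were not in the promoter table used here.

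CSF1 was an abundant message that rose with ConA and showed no detectable change with PMA, apart from a small fall (log2 -0.17) after quantile normalization. CSF2 was scarce in the controls and rose several-fold with both treatments. CSF3 was close to absent in the PMA controls and rose with PMA by the largest ratio of the 3. A gene was called when the log2 fold change, on log2(normalized count + 1), was at least 1 in size with an adjusted p of at most 0.0001 (limma, Benjamini-Hochberg over all genes tested). With PMA, 2 of the 3 colony-stimulating factors were called higher, where 4.03% of 15153 genes tested were called higher and 4.61% lower. With ConA, both listed members were called higher, where 5.83% of 15139 genes tested were called higher and 2.88% lower.

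**Figure D1:**
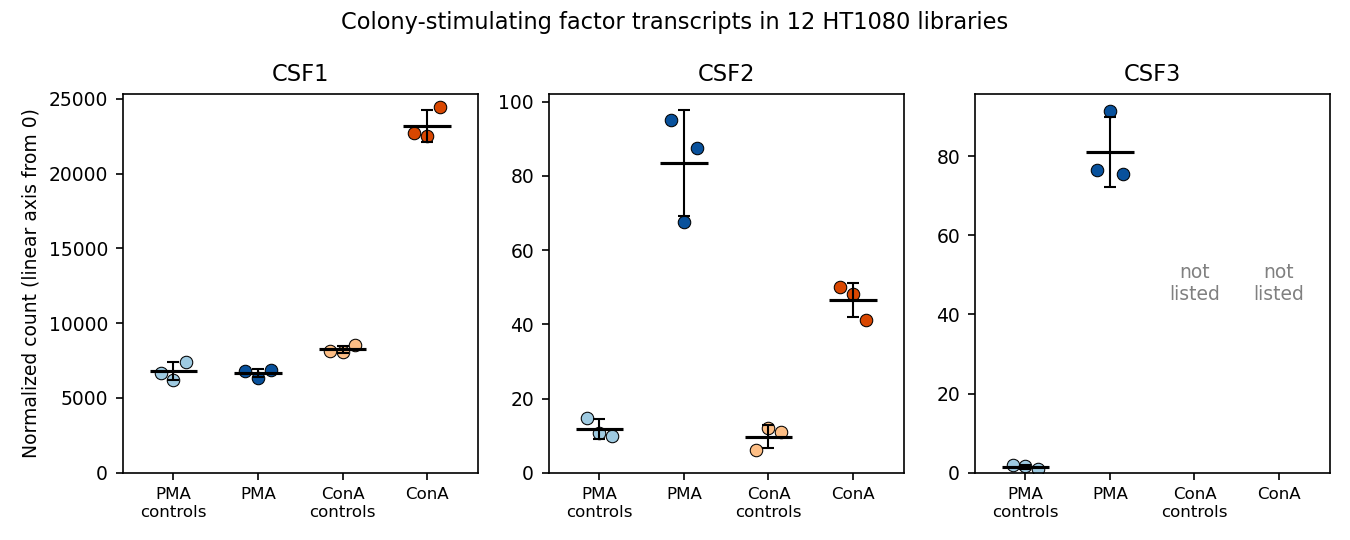
Normalized counts of CSF1, CSF2 and CSF3 (linear axes from 0) in each of the 12 libraries, with the mean (horizontal line) and SD (bar) of each group of 3. The ConA libraries stand alone for CSF1 at 22488 to 24440, both treated groups stand above their controls for CSF2, and CSF3 is near 0 in the PMA controls and at 75.4 to 91.3 with PMA.

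CSF1, on chromosome 1, had normalized counts of 6698, 6225 and 7422 in the PMA controls and 6831, 6358 and 6852 with PMA. The groups overlapped, and the means (6782 ± 603 and 6680 ± 280, SD, n = 3 each) differed by less than the spread between libraries. The log2 fold change was -0.02 (SE 0.06, 95% interval -0.15 to 0.11, limma adjusted p = 0.801). In the ConA experiment, CSF1 had 8152, 8074 and 8535 in the controls and 22698, 22488 and 24440 with ConA. Every ConA library lay far above every control, and the ratio of the means was 2.81. The log2 fold change was 1.49 (SE 0.05, limma adjusted p = 1.2e-11). For 67.9% of genes tested with PMA and 69.3% with ConA, the treated libraries all lay on one side of the controls, so a lack of overlap alone was common.

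CSF2, on chromosome 5, had normalized counts of 14.8, 10.7 and 9.93 in the PMA controls and 95.2, 67.5 and 87.4 with PMA. These stand for 16, 12 and 11 estimated reads against 82, 71 and 73, and the groups did not overlap. The log2 fold change was 2.72 (SE 0.24, limma adjusted p = 1.59e-06), and the ratio of summed reads scaled for the libraries was 6.98 (95% counting interval 4.95 to 10.1, which covers counting error only). In the ConA experiment, CSF2 had 6.25, 12.0 and 11.0 in the controls and 50.1, 48.1 and 41.3 with ConA. The lowest ConA library was again above the highest control. The log2 fold change was 2.18 (SE 0.30, limma adjusted p = 1.65e-05), and the scaled ratio of 142 against 29 reads was 4.72 (3.15 to 7.3). The adjusted p rose to 2.02e-04 and 1.29e-04 without ConA library 2 or 3, and to 1.20e-04 with PMA and 4.98e-04 with ConA when no variance trend was fitted, so that CSF2 was no longer called in those fits.

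CSF3, on chromosome 17, had normalized counts of 1.84, 1.79 and 0.903 in the PMA controls, which are 2, 2 and 1 estimated reads. With PMA it had 76.6, 91.3 and 75.4, or 66, 96 and 63 reads. All 3 treated libraries stood far above the controls, and the scaled ratio of 225 against 5 reads was 54.2 with a 95% counting interval of 22.9 to 169. The fitted log2 fold change was 5.05 (SE 0.33, limma adjusted p = 1.19e-07) and depends on the pseudocount for a gene this low in the controls, being 5.71 at a pseudocount of 0.1 and 2.98 at 10. Each gene listed in either table reached at least 10 estimated reads in a library. If that was the rule for listing, CSF3 stayed below 10 reads in every library of the ConA experiment, where PMA gave 63 to 96. CSF3 has no value with ConA, so its fold change cannot be compared between the treatments.

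The changes with PMA and ConA were then set against each other in one fit of the 12 libraries. The treatments share no control library, and each term is a difference within one table. For CSF1 the change with PMA was smaller than that with ConA by 1.51 on the log2 scale (PMA minus ConA -1.51, SE 0.08, limma adjusted p = 5.18e-11), which was called, as were 10.6% of the 15030 genes tested for a difference. For CSF2 the difference was 0.54 (SE 0.38, 95% interval -0.25 to 1.34, limma adjusted p = 0.225). A difference between the treatments was thus not shown for CSF2, and the interval holds both no difference and one of more than 1 on the log2 scale.

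The 3 genes lay at very different levels. Per kb of the gene's annotated exons (4891 bases for CSF1, 787 for CSF2 and 1768 for CSF3), the normalized count of CSF1 was above that of 89.3% of genes before and 88.4% after PMA. These shares are of the 15240 genes of the PMA table (94.7%) and 15157 of the ConA table (94.8%) that had an annotated length. It was above 89.2% of genes before and 96.7% after ConA. CSF2 per kb was above 17% of genes before and 39.4% after PMA, and above 15.5% and 28.6% before and after ConA. CSF3 per kb moved from above 0.656% of genes to above 28.8% with PMA. Within each library, CSF1 stayed the most abundant of the 3 per kb. The CSF1 level per kb was 95.6 ± 23.7 times that of CSF2 in the PMA controls and 13.1 ± 1.85 times with PMA (SD, n = 3). It was 148 ± 54.5 times that of CSF2 in the ConA controls and 81.1 ± 12.2 times with ConA, ranges of 108 to 210 and 72.9 to 95.1 that did not overlap. CSF2 per kb remained above CSF3 in every PMA library, by 1.66 to 2.79 times.

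RNA of blood cells was looked for because lymphocytes are a source of CSF2. Of 13 leukocyte markers, 9 were listed in the PMA table, among them PTPRC, CD3D, CD3E, CD2 and NKG7, and 4 in the ConA table (CD3D, LYZ, ITGAM and ITGAX), where PTPRC, CD3E, CD2 and NKG7 were not listed. Their summed normalized counts were 856, 828 and 732 in the PMA controls and 989, 1152 and 1489 with PMA, so the treated libraries were higher and PMA library 3 was the highest. PTPRC, the common leukocyte antigen, was at 187, 177 and 176 in the PMA controls and 168, 232 and 328 with PMA, which overlapped. CD3E, a T cell receptor subunit, was at 110, 125 and 116 without and 176, 199 and 233 with PMA, groups that did not overlap, and was not called (log2 0.78, limma adjusted p = 1.83e-04). Of the myeloid integrin genes, ITGAX differed by 1.00 on the log2 scale with PMA and 0.19 with ConA, and ITGAM by 0.09 with PMA and 2.88 with ConA, where its mean was 3.69 in the controls and 29.4 in treated cells. Neither was called, but ITGAX with PMA passed in 3 of 16 alternatives and ITGAM with ConA in 4 of 14. FCGR3A, an Fc receptor, differed by 1.31 with PMA, and LYZ, lysozyme, was at means of 10.8 without and 2.77 with PMA. LYZ was higher in the ConA experiment, at means of 93.3 without and 111 with ConA. With limma, 0 of the 8 markers tested with PMA and 0 of the 4 tested with ConA were called, and 4 and 1 of them were higher at an unadjusted p under 0.05, a cut that 66.7% of all genes tested passed with PMA and 68.2% with ConA. The sums in the ConA table were 191 to 238 in the controls and 211 to 315 with ConA. Without PMA library 3 the log2 fold changes of CSF2 and CSF3 were 2.68 and 5.10. The part of leukocyte RNA in the CSF2 and CSF3 results was not tested. Fewer cells of a type and less RNA per cell cannot be told apart in bulk libraries.

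The label of the cells was checked against markers too. Of 7 mesenchymal markers, 7 were listed in the PMA table. Their summed normalized counts were 411004 to 423073 in the controls and 436821 to 456928 with PMA. The ConA table listed 6 of them, without THY1, with sums of 412733 to 493086 in the controls and 278994 to 299907 with ConA. The sums were dominated by the most abundant markers. With PMA, PDGFRB was called lower (log2 -1.66), as was S100A4 with ConA (-1.05). No other mesenchymal marker was called. With limma, 2 were higher and 4 lower at an unadjusted p under 0.05 with PMA, and 1 and 5 with ConA. That cut was passed by 66.7% and 68.2% of all genes. Of 4 epithelial markers, 2 were listed in the PMA table, with sums of 130 to 136 in the controls and 65.9 to 81.3 with PMA, and 4 in the ConA table, with sums of 146 to 159 in the controls and 145 to 203 with ConA. Of 4 endothelial markers, 3 were listed in each table, with sums of 125 to 160 in the PMA table and 163 to 211 in the ConA table. The libraries held 33648923 to 45588014 estimated reads on genes (median 40976528).

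Other haematopoietic growth factors were mostly low or absent. IL34, the second ligand of CSF1R, was listed in the ConA table only, at 2.08, 6.00 and 5.01 in the controls and 17.0, 20.9 and 16.2 with ConA. The groups did not overlap, but the log2 fold change of 1.90 (limma adjusted p = 1.45e-03) missed the threshold, with a scaled ratio of 55 against 13 reads of 4.08 (95% counting interval 2.2 to 8.14). KITLG, the stem cell factor, was at 457, 470 and 474 without PMA and 752, 842 and 861 with it. In the ConA experiment it was at 586, 488 and 508 in control and 955, 1162 and 1035 in treated cells. Its log2 fold changes of 0.81 and 0.99 stood just below the fold threshold, with limma adjusted p = 9.32e-07 and 2.86e-07. FLT3LG, the FLT3 ligand, differed by -0.14 with PMA and 0.37 with ConA and was not called in either. IL5 was at most at 1.84 in 5 of the 6 libraries of the PMA table and at 15.6 in PMA library 3, the library with the highest leukocyte sum, and was too low to be tested. THPO, thrombopoietin, was listed in the PMA table only, with 22 reads in the controls and 8 with PMA, and was not tested. IL3 and EPO were not listed in either table.

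**Figure D2:**
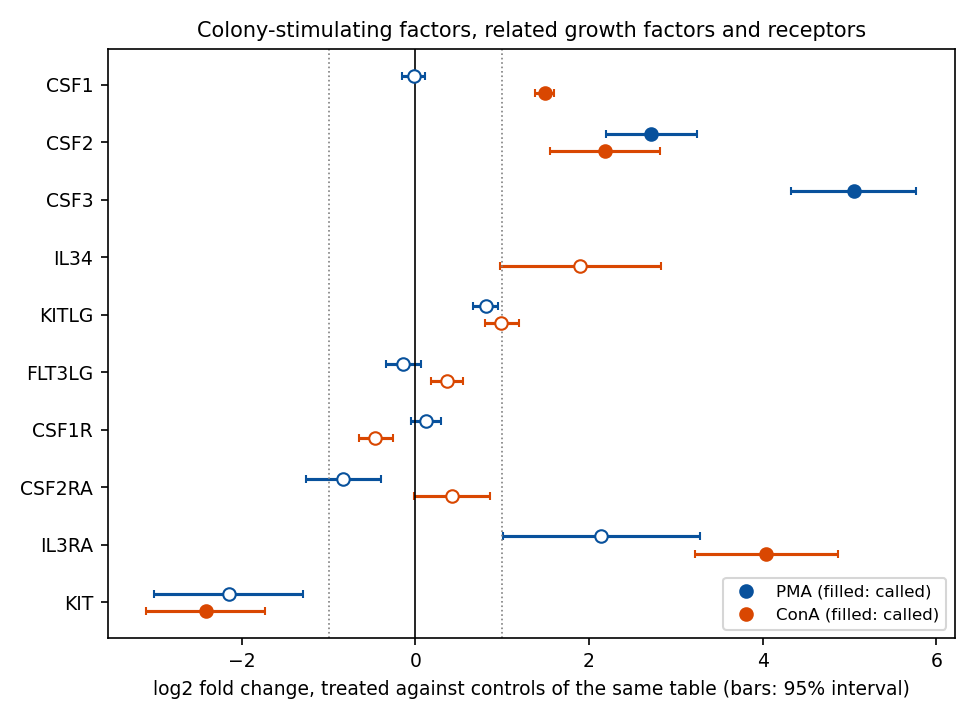
Log2 fold changes (horizontal axis) of the colony-stimulating factors, related growth factors and receptors with PMA (blue) and ConA (orange) against the controls of the same table, with 95% intervals; filled points were called and dotted lines mark the fold threshold of 1. CSF1 separates the treatments, CSF2 rose with both, and a point is missing where a gene was not listed or not tested.

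Of the 8 receptors of these factors, 4 were listed in each table. CSF2RB, the signalling chain shared by the CSF2, IL-3 and IL-5 receptors, and CSF3R, the receptor of CSF3, were not listed in either, nor were IL5RA and FLT3. CSF1R, the receptor of CSF1 and IL34, was at 287, 315 and 309 in the PMA controls and 311, 351 and 329 with PMA, which overlapped (log2 0.12, limma adjusted p = 0.205). With ConA it stood at 260, 256 and 262 against 340, 349 and 382 in the controls, a log2 difference of -0.46 (limma adjusted p = 4.51e-04) that was not called. CSF1R was thus not called in the treatment that raised its ligand. CSF2RA, the ligand-binding chain for CSF2, was at 65.5, 47.4 and 56.0 in the PMA controls and 29, 30.4 and 33.5 in treated cells. That difference of -0.83 (limma adjusted p = 2.97e-03) was not called, nor was that of 0.42 with ConA, where the groups overlapped.

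IL3RA, the ligand-binding chain for IL-3, had 2.08, 1.00 and 2.00 in the ConA controls and 36.0, 47.0 and 45.8 with ConA. It was called higher (log2 4.04, limma adjusted p = 5.16e-07), with a scaled ratio of 132 against 5 reads of 25.4 (95% counting interval 10.6 to 79.7). With PMA its log2 fold change was 2.14 and was not called (limma adjusted p = 3.56e-03). KIT, the receptor of KITLG, was at 38.6, 41.0 and 28 in the ConA controls and at 7.01, 5.23 and 5.39 with ConA, and was called lower (log2 -2.41, limma adjusted p = 1.36e-05). With PMA it was at 21.2, 29.5 and 36.1 in the controls and 4.64, 3.8 and 9.58 in treated cells, a difference of -2.15 that missed the threshold (limma adjusted p = 5.56e-04). Of the receptors listed, 0 of 4 were called with PMA, beside 4.03% of all genes called higher and 4.61% lower. With limma, 3 of the 4 were at an unadjusted p under 0.05 with PMA, a cut that 66.7% of all genes passed. With ConA, 1 of 4 was called higher and 1 lower, beside 5.83% and 2.88% of all genes.

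Downstream of the receptors lies the JAK and STAT pathway. Of 18 of its genes tested with PMA, 2 were called higher and 0 lower, beside 4.03% and 4.61% of all genes, with a median log2 fold change of 0.37 beside 0.00 over all genes. These were SH2B3 (1.20), an adaptor that restrains JAK2, and PIM3 (1.03), a kinase of the PIM family. SH2B3 was not called without a variance trend, nor was PIM3 after quantile normalization (0.91). With ConA, 1 of 17 was called higher and 0 lower (median 0.09), beside 5.83% and 2.88% of all genes, namely STAT5A, which carries the signal of CSF2 and IL-3 (log2 1.56, limma adjusted p = 1.46e-09). STAT5A was at 190 ± 7.39 in the ConA controls and 563 ± 5.37 with ConA, and its log2 difference with PMA was 0.68.

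Of 24 transcription factors known to act on these genes, and their inhibitors, 9 were called higher and 1 lower with PMA (median 0.72), beside 4.03% and 4.61% of all genes. The 5 with the largest rise were ETS1 (1.81), the AP-1 subunit FOSL1 (1.81), the NF-kB inhibitor NFKBIA (1.55), and the NF-kB subunits NFKB2 (1.33) and NFKB1 (1.28). CEBPD, a C/EBP factor, was called lower (-1.11), while CEBPB was called higher (1.26). Both calls were lost after quantile normalization and without a variance trend. The CEBPB call was also lost when PMA library 1 or 2 or control 1 or 2 was left out (1.10 to 1.28), and the CEBPD call without control 3 (-0.99). With ConA, 5 of 24 were called higher and 1 lower (median 0.62), beside 5.83% and 2.88% of all genes. NFKBIA (2.26), NFKB2 (1.64), FOS (1.53), RELB (1.46) and NFKB1 (1.09) rose, and NFATC2, a calcium-regulated factor, fell by 1.08, a call that was lost without control 6 and without a variance trend. NFKBIA, NFKB2, NFKB1 and RELB were called with both treatments, but the RELB call with PMA (1.11) was lost in 1 of 16 alternatives. ETS1 separated them, at 7408 ± 135 in the PMA controls and 26008 ± 248 with PMA but 6208 ± 257 and 7280 ± 374 in the ConA experiment (log2 0.23, not called).

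Cytokines that induce CSF2 and CSF3, and their receptors, included the largest changes of the lists. With PMA, 5 of 14 were called higher and 1 lower (median 0.21), beside 4.03% and 4.61% of all genes. With ConA, 6 of 13 were called higher and 0 lower (median 0.97), beside 5.83% and 2.88% of all genes. With limma, 6 were higher and 6 lower at an unadjusted p under 0.05 with PMA, and 9 and 3 with ConA. That cut was passed by 66.7% and 68.2% of all genes. IL33, an alarmin of the IL-1 family, rose with both (log2 4.20 and 3.46), as did TNF (1.85 and 2.15) and TLR2 (1.89 and 3.52), the receptor of bacterial lipopeptides. TNF was scarce, at 14.8 ± 2.09 and 56.7 ± 13.1 in the PMA experiment and 8.77 ± 1.37 and 42.5 ± 5.77 in the ConA experiment. Its call with PMA was lost when any one of 5 of the 6 libraries was left out. The call of TNF with ConA was lost in 2 of 14 alternatives (limma adjusted p up to 2.26e-04). IL1B was already high in the PMA controls (20915 ± 1325) and reached 219005 ± 7262 with PMA (log2 3.39), and its log2 fold change of 0.97 with ConA lay just below the fold threshold and passed it without ConA library 1 (1.04) and after quantile normalization (1.07). IL1A was called higher with PMA (1.85) and not with ConA (0.78). TNFRSF1B, the second TNF receptor, rose with ConA from 39.5 ± 7.68 to 879 ± 145 (4.44), and IL1R1, the IL-1 receptor, by 1.25. With PMA, TNFRSF1B differed by 0.97 and IL1R1 by -0.52, and neither was called. TNFRSF1A, the first TNF receptor, differed by -0.74 with PMA and -0.54 with ConA and was not called. IL1RAP differed by -0.51 and -0.27, and IL17RC by -0.69 and -0.39, and neither was called. TLR3, which senses double-stranded RNA, fell with PMA (-1.74) and rose with ConA (2.46).

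**Figure D3:**
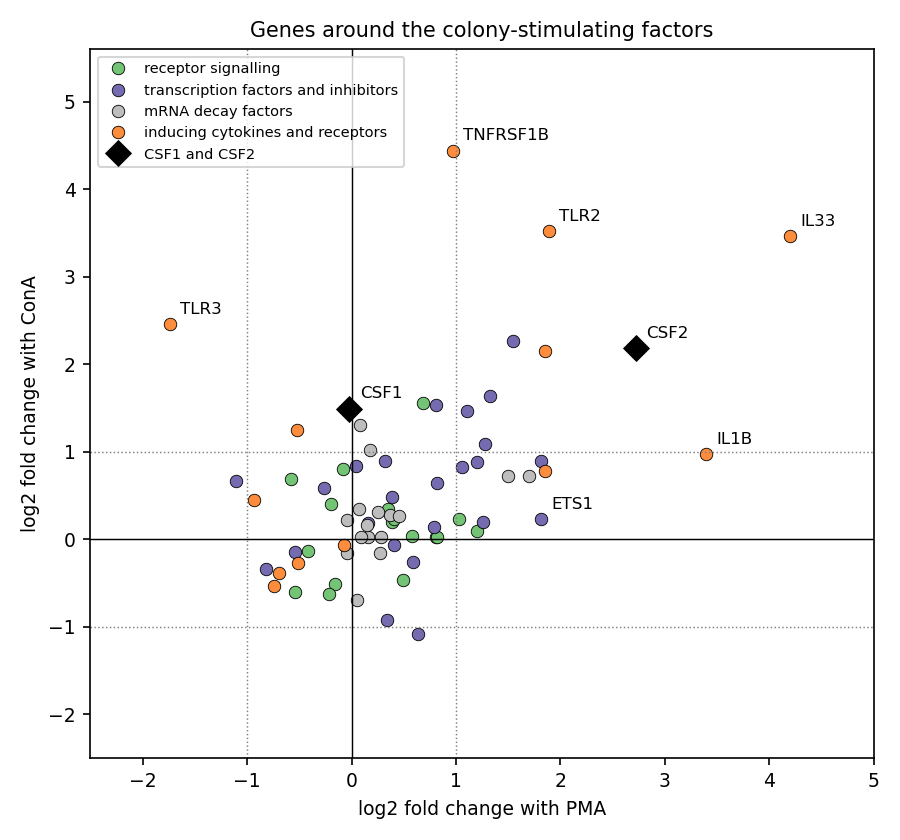
Log2 fold change with PMA (horizontal axis) against that with ConA (vertical axis) for genes tested in both tables from 4 lists around the colony-stimulating factors, with CSF1 and CSF2 as diamonds and dotted lines at the fold threshold of 1. CSF2 lies in the corner of genes that rose with both, CSF1 lies on the line of no change with PMA, and TLR3 lies at -1.74 with PMA and 2.46 with ConA.

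A further list held 16 factors that affect the decay of messages. Some act against decay, and not all act through AU-rich letters. Whether they acted on CSF2 or CSF3 was not tested. With PMA, 2 of 16 were called higher and 0 lower (median 0.17), beside 4.03% of all genes called higher, namely ZFP36 (1.70), which encodes tristetraprolin and was at 459 ± 33.6 in the controls and 1497 ± 99.1 with PMA, and the ribonuclease gene ZC3H12A (1.50). With ConA, 2 of 16 were called higher and 0 lower (median 0.24), beside 5.83% of all genes called higher, namely ZFP36L2 (1.31), a relative of ZFP36, and ARID5A (1.02), which opposes ZC3H12A on some messages. ARID5A stood at the fold threshold and was not called in 5 of 15 alternatives, namely after quantile normalization (0.92), with a pseudocount of 10 (0.99), without a variance trend, and without ConA library 3 (0.96) or control 4 (0.97). ZFP36 and ZC3H12A also rose with ConA, each by 0.72, below the fold threshold. ZFP36L2 and ARID5A differed by 0.08 and 0.18 with PMA and were not called. The genes called thus differed between treatments. The difference itself was called for ZFP36L2 (PMA minus ConA -1.24, limma adjusted p = 2.83e-08). It was below the fold threshold and not called for ZFP36 (0.99), ZC3H12A (0.78) and ARID5A (-0.84). Of 6 genes that release CSF1 from the membrane or bind IL34, 0 were called with PMA (median 0.05) or ConA (median 0.18). Of all genes, 4.03% were called higher and 4.61% lower with PMA, and 5.83% and 2.88% with ConA. With limma, 4 and 6 of these 6 genes were at an unadjusted p under 0.05, a cut that 66.7% and 68.2% of all genes passed.

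The neighbours of the members were also measured. Of the 18 nearest protein-coding genes (3 on each side of each member, in RefSeq order), 11 were tested with PMA and 10 with ConA. In either comparison, 0 of them were called. Of all genes, 4.03% were called higher and 4.61% lower with PMA, and 5.83% and 2.88% with ConA. With limma, 8 and 7 neighbours were at an unadjusted p under 0.05, a cut that 66.7% and 68.2% of all genes passed. IL3, the neighbour of CSF2 in the cytokine cluster of chromosome 5, was not listed, and P4HA2 on the other side differed by -0.61 with PMA and -0.10 with ConA. Beside CSF1, AHCYL1 differed by -0.57 with ConA, and beside CSF3, PSMD3 and MED24 differed by 0.38 and -0.16 with PMA. NR1D1, 3 genes from CSF3, had the largest difference of these neighbours (0.87 with PMA).

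The genes most like each member were ranked by the root mean square difference over the 12 libraries, on log2 values minus the mean of the controls of the same table, among 14660 genes. This ranking is a description in which points share libraries. Among the 5 genes closest to CSF1 were N4BP1 (0.0774), TRIM26 (a ubiquitin ligase), ADAR (which edits double-stranded RNA) and TAPBP (tapasin, of antigen loading). Their log2 fold changes were -0.21 to 0.07 with PMA and 1.33 to 1.50 with ConA. Among the 5 closest to CSF2 were ALOXE3 (0.339, a lipoxygenase), HPSE (heparanase), LOC105378230 and SH2D2A (a T cell adaptor). These rose by 2.13 to 3.22 with PMA and 1.80 to 2.17 with ConA. A ranking by Pearson correlation shared 0 of its first 5 genes with those named for CSF1 or CSF2.

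CSF3 could be ranked over the 6 libraries of the PMA table only. The closest genes were SCG5 (0.243), LRRC15, ESM1 (endocan), SERPINA1 (an elastase inhibitor) and MMP9 (gelatinase B), with log2 fold changes of 4.77 to 4.98 with PMA. Their log2 fold changes with ConA were 2.74 for SCG5, 3.13 for ESM1, 2.25 for MMP9, 2.08 for SERPINA1 and -0.47 for LRRC15. SCG5 and LRRC15 were not called with ConA.

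**Figure D4:**
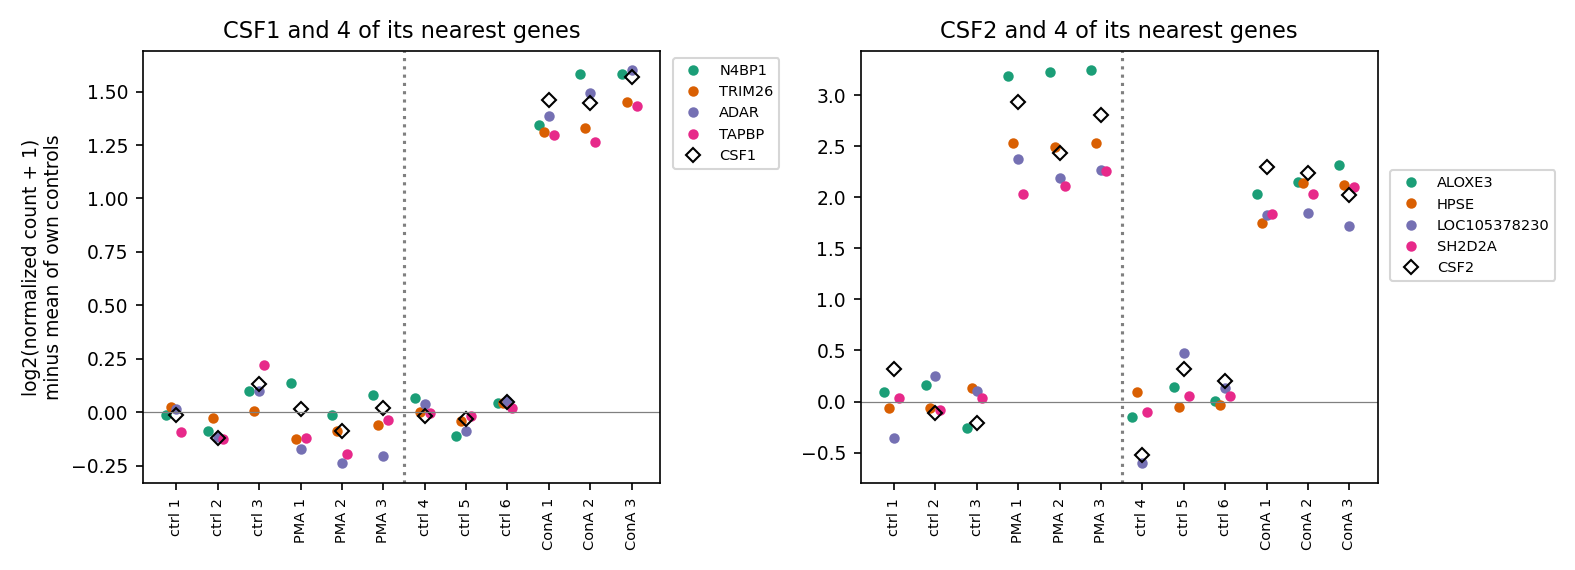
Level of CSF1 (left) and CSF2 (right), as open diamonds, and of 4 of the 5 genes most like each, as points, in each of the 12 libraries on log2(normalized count + 1) minus the mean of the controls of the same table. The dotted line parts the PMA table (left) from the ConA table (right), the CSF1 group lies near 0 except in the ConA libraries, and the CSF2 group lies above 1.5 in all 6 treated libraries.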

How the data were processed

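RNA sequencing of polyA RNA from HT1080 cells gave 12 libraries in 2 tables, grouped by the labels. The values deposited by the authors are a normalized count signal for each gene, that is, estimated reads divided by 1 factor per library, with each table normalized apart. The submitters' processing notes name Partek, STAR, Bowtie2 and DESeq2 and the builds hg19 and mm10, without roles. Which build and which counting rule made these tables is not given in the sources used here. The value of 1 read was estimated for each library from values of 5 to 60, of which 81.6% to 83.9% became whole within 0.05 read, so reads shared between genes had been split, whole reads were not recovered and count models were not run. Depth was 33648923 to 45588014 estimated reads.

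Within each table, limma 3.58.1 (R 4.3.3, variance trend) was run on log2(normalized count + 1) for genes with a mean of at least 10, and checked on simulated data. Genes were called at a log2 fold change of 1 or more in either direction with a Benjamini-Hochberg adjusted p of up to 0.0001. The contrast of the treatments was fitted over 12 libraries and 4 group means. A permutation test of 3 against 3 cannot go below p = 0.1 and was not used. Counting intervals are exact at 95% and cover counting error only. Lengths and untranslated regions came from GENCODE 29, and the promoter and gene order from RefSeq GRCh38.p14.

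Named genes are the members, listed related factors and receptors, called genes of each list up to the 5 largest per treatment, the 5 genes most like each member and the 3 neighbours on each side. Of the genes most like CSF1 and CSF2, 1 each is not reported here. Outside that rule, CEBPB, CEBPD, NFATC2, IL1R1, TNFRSF1A, IL1RAP, IL17RC, CD3E, ITGAX, ITGAM, FCGR3A and LYZ were chosen after their values were seen, as was the ranking for CSF3 over 6 libraries. Members and lists were chosen with earlier results of these data known, and no list was tested as a set. Alternatives were pseudocounts of 0.1 and 10, no minimum mean or one of 50, quantile normalization, median centring, no variance trend, an adjusted p of 0.05, the replicate block, 1 fit of 12 libraries, and each library left out. Python 3.11.15 was used for tables and figures.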

Additional observations from a re-analysis of the deposited data

Results flagged for a closer look

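Of all 15030 genes tested for a difference between the treatments, 10.6% were called. The tested difference, as the log2 change with PMA minus that with ConA, passed the threshold for 12 of the genes named as members or from the lists. These are CSF1 (-1.51), the JAK adaptor SH2B3 (1.11), the transcription factors ETS1 (1.58), CEBPD (-1.77) and NFATC2 (1.73), the decay factor ZFP36L2 (-1.24), the cytokines IL1B (2.42) and IL1A (1.07), the receptors TNFRSF1B (-3.47) and IL1R1 (-1.77), and the Toll-like receptors TLR2 (-1.62) and TLR3 (-4.19). The limma adjusted p-values were 5.18e-11 for CSF1, 1.82e-14 for TLR3 and at most 5.17e-06 for the others, over 12 libraries. TLR3 changed in opposite directions, TLR2 rose with both treatments and more with ConA, and IL1B and IL1A were called higher with PMA and not with ConA, where IL1B lay just below the fold threshold (0.97). Genes named for likeness to a member were chosen by their pattern and are not counted here. List genes were named mostly because they were called with a treatment, so the 12 cannot be set against the share of all genes. JUN (1.27), TLR4 (-1.38) and VIM (1.29) of the lists also passed, but were not named above and are not among the 12. The causes of these differences were not tested.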

How the results depend on the processing

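Without a variance trend, 867 genes were called with PMA in place of 1310 and 662 with ConA in place of 1318, and CSF2 kept its log2 fold changes of 2.72 and 2.18 but missed the threshold (adjusted p = 1.20e-04 and 4.98e-04). At an adjusted p of 0.05, 1933 and 1750 genes were called, and IL34 with ConA, and IL3RA and KIT with PMA, passed. Leaving out 1 library at a time gave 1107 to 1250 calls with PMA and 1122 to 1417 with ConA. CSF1 with PMA ranged from -0.08 to 0.05 and had no stable sign, CSF1 with ConA ranged from 1.45 to 1.52, CSF2 with PMA from 2.62 to 2.88 and CSF3 from 4.86 to 5.15. CSF2 with ConA ranged from 1.92 to 2.34 and was not called without ConA library 2 (2.16) or 3 (2.26). KIT with ConA (-2.31 to -2.58) was not called without control 4 or 5, and KITLG with ConA (0.92 to 1.07) was called without control 4 or ConA library 1 or 3. With PMA, PDLIM4 ranged from -0.27 to 0.20, SLC22A4 from -0.04 to 0.08 and ITGAM from -0.08 to 0.20, and LRRC15 with ConA from -0.75 to 0.05. Quantile normalization turned FLT3LG (0.03) and PDLIM4 (0.30) with PMA, and put CSF1 with PMA at -0.17 (limma adjusted p = 0.0151, not called). It moved the CSF2 difference between treatments to 1.03 (limma adjusted p = 0.0227, not called), with 0.38 to 1.03 over all alternatives. A minimum mean of 50 left no value for CSF2 or CSF3. Replicate numbers 1 to 3 are shared by the PMA groups, but same-numbered libraries did not deviate together (correlations -0.0636, 0.0964 and 0.0964). With the replicate block, 1264 genes were called with PMA, and CSF1 (-0.02), CSF2 (2.72) and CSF3 (5.05) kept their values and calls. Depth limits CSF3, at 1 to 2 reads in each control, and CSF2, at 6 to 16.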
